A study of Mus musculus with 6 samples.

Results

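The 9 genes described here encode the core of cohesin, some of its regulators and its boundary partner CTCF. Smc1a, Smc3, Rad21, Stag1, Stag2, Nipbl, Pds5a, Pds5b and Ctcf were chosen by symbol, with earlier results of these data known. All 9 were found among the 41254 symbols of the table. Their transcripts were summed per symbol, and all 9 passed the filter on low counts. RNA came from DN3a thymocytes of adult C57BL/6 mice, precursors in the thymus, without CD4 or CD8, that rearrange the T cell receptor beta locus. The libraries comprised 3 from wild-type mice and 3 from mice whose genotype is given as Tg_Cd2_GATA3, and the series concerns extra GATA3, a transcription factor of the GATA family that T cell precursors need. The genotype label names Cd2 with the transgene, but no source used here says which of its elements drives it, how many transgenic lines were used or whether each library came from 1 mouse. A p-value here therefore measures the spread between libraries, which may be partly technical. The 3 values of a group are always given in the order of replicates 1, 2 and 3, wild type first.

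Cohesin is a ring of the long ATPases SMC1A and SMC3, closed by the kleisin RAD21 and bound by a STAG subunit, STAG1 or STAG2. NIPBL, with its partner MAU2, loads the ring and drives it to extrude loops of chromatin, PDS5 proteins and WAPL limit how long it stays, and CTCF bound to DNA stops it at loop boundaries. In lymphocytes loop extrusion brings distant V segments of antigen receptor loci near the recombination centre, and in dividing cells the same ring holds sister chromatids together until mitosis.

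Libraries held 39022281 to 46985605 estimated fragments, of which each of the 9 genes drew 4847 to 25036. Gata3 stood at 49.1, 38.2 and 43.5 CPM (fragments scaled to a common library size, with TMM factors) in wild type and at 58.6, 53.6 and 61.6 CPM in transgenic libraries. Its groups did not overlap, but edgeR did not call it (adjusted p = 0.17 over all genes), whereas DESeq2 called it higher (adjusted p = 0.00753). All 8 markers of the DN3a stage were detected, Rag1 and Ptcra among them. Markers of natural killer cells summed to 33.1 to 46.9 CPM in wild type against 31.6 to 40.1 in transgenic libraries, nearly all of it Nkg7, with Ncr1 at 0. The 3 B cell markers summed to at most 0.46 CPM in any library. Myeloid markers summed to 17.8 to 24.8 CPM and erythroid markers to 0.387 to 2.53 CPM in wild type against 1.99 to 5.11 in transgenic libraries. Epithelial markers summed to 75.0 to 92.0 CPM, nearly all of it Epcam, with Foxn1 at most at 0.102 CPM. Fragments of Y-linked genes numbered 18522 in wild-type replicate 1, 16840 in transgenic replicate 3 and 16 to 26 in each of the other libraries, so 1 library of each group held Y-linked RNA.

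Measured per transcript length, Stag2 had the highest level of the 9 genes and Pds5b and Nipbl had the lowest. The scale is FPKM, fragments scaled for transcript length and library size, summed over a gene's transcripts. Stag2 averaged 134 ± 13.7 FPKM (SD over the 6 libraries), and its lowest library, at 125, lay above the highest of any other member. Next came Pds5a, at 78.0 ± 3.69, and Smc1a, at 76.7 ± 4.80, whose ranges overlapped and whose order held in 5 of 6 libraries. Ctcf, at 67.6 ± 2.58, lay below Smc1a in all 6 libraries without overlap and above Smc3, at 42.4 ± 2.07, likewise.

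Stag1, at 37.1 ± 2.51 FPKM, and Rad21, at 35.8 ± 4.15, were not separated, each being the higher one in 3 of the 6 libraries. Smc3 lay above Stag1 in all 6, although their ranges overlapped. Pds5b, at 19.7 ± 2.17, and Nipbl, at 19.3 ± 1.97, also overlapped, and Pds5b was the higher in 4 of 6. The members with the highest and the lowest level stood at percentiles 95.9 and 66.3 of the tested genes. Short annotated transcripts weigh heavily in this sum: when transcripts under 1000 bases were left out, a choice made after seeing the data, Stag2 stood at 93.3, Smc1a at 65.4 and Ctcf at 51.9 FPKM, and the mean of Rad21 (35.8) lay above that of Stag1 (34.2), again with each the higher in 3 of 6 libraries.

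**Figure D1:**
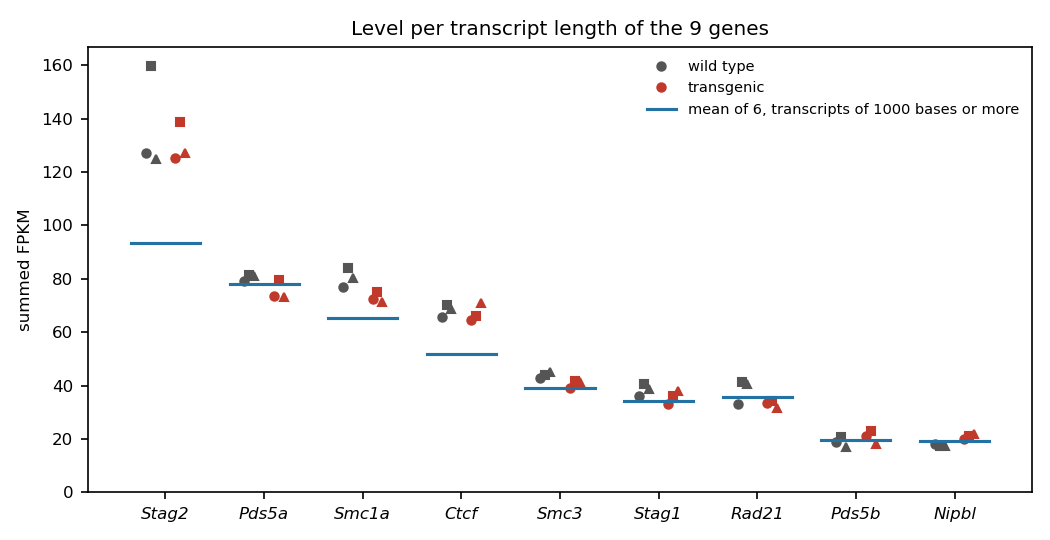
Summed FPKM (y axis) of the 9 genes in each wild-type (grey) and transgenic (red) library (circles for replicate 1, squares for 2, triangles for 3), with the mean over 6 libraries for transcripts of at least 1000 bases as a blue line. Stag2 lies at 125 to 160 FPKM, above all other members, and Pds5b and Nipbl lie at 17.0 to 22.8.

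In transgenic libraries 7 of the 9 genes lay below the wild-type mean and 2 above it, and no member was called after adjustment over all 14653 genes tested (edgeR quasi-likelihood test), where 0.0136% of genes were called. At an unadjusted p under 0.05, 6 members were lower and 1, Nipbl, was higher, beside 7.7% of all genes lower and 5.71% higher. The members' median log2 fold change was -0.14, against 0.00109 for all genes, of which 49.8% lay below 0. The 2 groups did not overlap in CPM for 5 lower members and 1 higher member, beside 10.1% and 8.73% of all genes. DESeq2 called 2 members, Smc1a lower and Nipbl higher, where it called 4.62% of genes. In bulk RNA, fewer cells of a type and less RNA per cell cannot be told apart.

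For the 2 ATPases of the ring and the kleisin that closes it the transgenic level differed from wild type by -15.1 to -10.9%, and edgeR called none of the 3. Smc1a (ENSMUSG00000041133, chromosome X, 152016428 to 152062694, plus strand, GRCm38) stood at 412, 487 and 459 CPM in wild type and at 396, 394 and 369 CPM in transgenic libraries. All 3 transgenic values lay below the lowest wild-type value, that of replicate 1, by a small margin. The log2 fold change was -0.23 ± 0.07 (SE), with a 95% interval from -0.38 to -0.07 (edgeR, adjusted p = 0.214). DESeq2 called it lower (adjusted p = 0.0313), and so did edgeR without wild-type replicate 1 (adjusted p = 0.0324). Without the 2 libraries with Y-linked RNA, wild-type replicate 1 and transgenic replicate 3, Smc1a was at -0.26 and not called (edgeR, adjusted p = 0.0621).

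Smc3, the other ATPase (ENSMUSG00000024974, chromosome 19, 53600398 to 53645833, plus strand), was at 223, 240 and 249 CPM in wild type and at 216, 218 and 201 CPM in transgenic libraries. Again the groups were separate and wild-type replicate 1 was the nearest to the transgenic ones. Its log2 fold change was -0.17 ± 0.06 (SE), with an interval from -0.30 to -0.03 (edgeR, adjusted p = 0.279). Rad21, which closes the ring and is cut by separase at anaphase (ENSMUSG00000022314, chromosome 15, 51962240 to 51991747, minus strand), had 138, 167 and 167 CPM in wild type and 140, 137 and 125 CPM in transgenic libraries. Wild-type replicate 1 lay among the transgenic libraries, so the groups overlapped. The log2 fold change of -0.24 ± 0.08 (SE), interval -0.42 to -0.06, was not called (edgeR, adjusted p = 0.255). Without wild-type replicate 1 it was -0.32 and called (edgeR, adjusted p = 0.0311), where 3.32% of all genes were called. Without the 2 libraries with Y-linked RNA it was -0.27 and not called (edgeR, adjusted p = 0.0688).

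**Figure D2:**
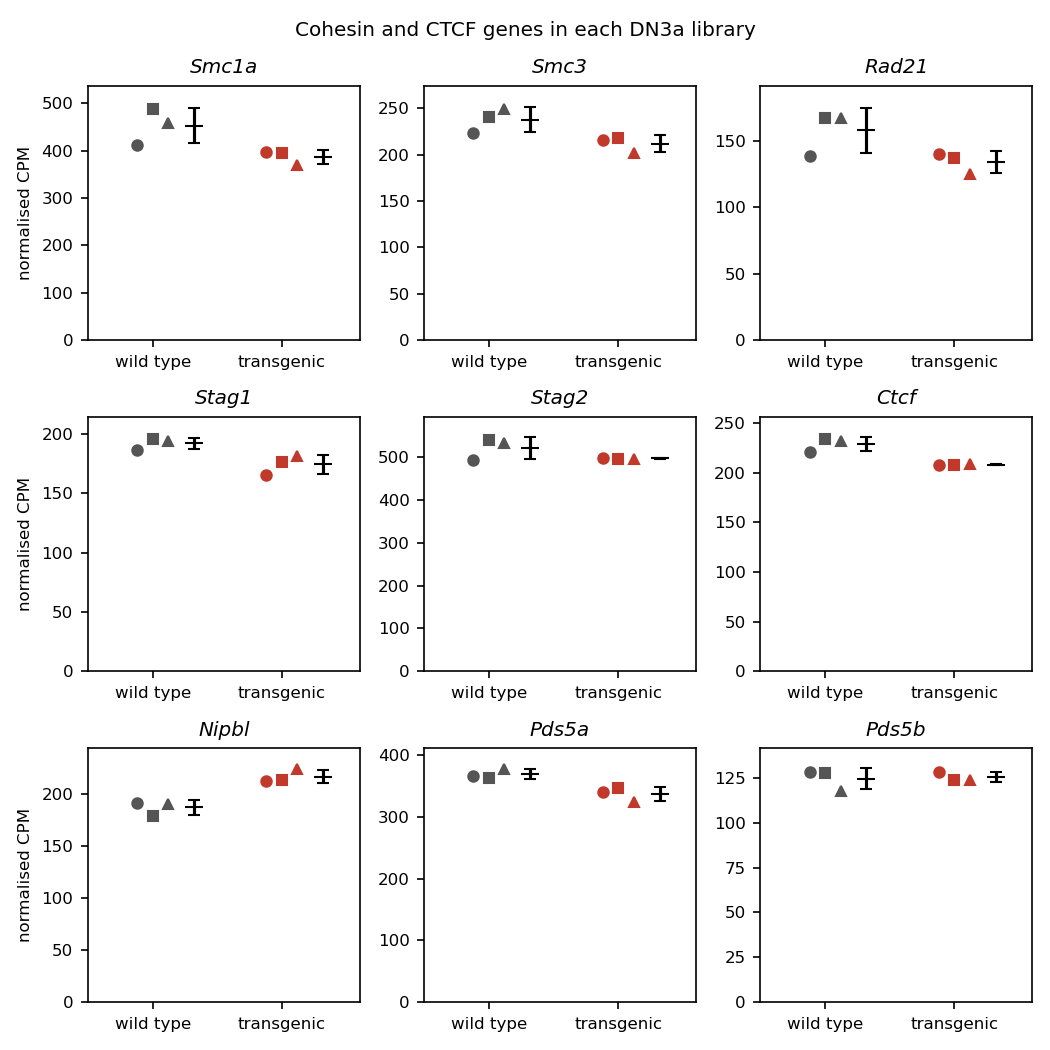
Normalised CPM (y axis, from 0) of the 9 genes in wild-type (grey) and transgenic (red) libraries (circles for replicate 1, squares for 2, triangles for 3), and black bars for mean and SD (n = 3). Nipbl is the gene whose 3 transgenic libraries all lie above the wild-type ones, and for Rad21 wild-type replicate 1, at 138 CPM, lies among the transgenic libraries.

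STAG proteins bind the ring to chromatin and to CTCF, and a cell's rings carry either STAG1 or STAG2. Stag2 (ENSMUSG00000025862, chromosome X, 42149317 to 42277185, plus strand) was at 492, 539 and 532 CPM in wild type and at 497, 496 and 496 CPM in transgenic libraries. The transgenic libraries differed by less than 2 CPM among themselves and lay within the wild-type range. Its log2 fold change was -0.07 ± 0.06 (SE), with an interval from -0.19 to 0.05 (edgeR, adjusted p = 0.647). Stag1 (ENSMUSG00000037286, chromosome 9, 100597798 to 100959375, plus strand) had 187, 196 and 194 CPM in wild type against 165, 176 and 181 CPM in transgenic libraries, without overlap. That was a log2 fold change of -0.14 ± 0.05 (SE), with an interval from -0.26 to -0.02 (edgeR, adjusted p = 0.304).

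Both STAG genes are annotated with a cassette exon of 111 bases, 37 codons, at the same place in the coding sequence, exon 31 of 34. The exons are shown because the paralogs used them in different proportions. The Stag1 exon lies at chr9:100953486-100953596 and the Stag2 exon at chrX:42266366-42266476, both on the plus strand of GRCm38, and both sequences are from the GENCODE M21 transcripts, with capitals for bases that are the same at the same position of both exons.
Stag1: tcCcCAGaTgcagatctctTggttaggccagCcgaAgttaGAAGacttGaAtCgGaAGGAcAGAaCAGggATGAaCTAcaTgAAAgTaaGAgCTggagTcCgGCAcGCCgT
Stag2: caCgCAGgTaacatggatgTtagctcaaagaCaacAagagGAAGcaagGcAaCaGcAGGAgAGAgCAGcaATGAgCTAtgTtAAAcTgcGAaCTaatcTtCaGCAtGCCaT
Laid side by side without gaps, they shared 51 of 111 bases, 8 of the first 37, 22 of the middle 37 and 21 of the last 37.

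Annotated transcripts with the exon took 85.8, 70.9 and 84.6% of the FPKM of Stag1 transcripts that span it in wild type, and 90.2, 85.9 and 82.5% in transgenic libraries. For Stag2 the same share was 14.1, 15.8 and 14.7% in wild type and 16.3, 13.5 and 14.9% in transgenic libraries. By this sum every library gave most Stag1 to forms with the exon and most Stag2 to forms without it, and the groups overlapped for both genes. With the 2 full coding transcripts of Stag1 alone, the share with the exon ran from 47.8% in wild-type replicate 2 to 83.2% in transgenic replicate 1. In wild-type replicate 2 the coding Stag1 transcript without the exon was estimated at 10.1 FPKM, against 2.78 to 5.28 in the other libraries, and the coding transcript with it at 9.25, against 13.4 to 15.5. The shares are the authors' estimates per transcript, 4 Stag1 transcripts with the exon and 1 without, 1 Stag2 transcript with it and 2 without. Transcripts compared also differ at their first exons, and reads over the exon junctions were not analysed here. The Stag1 transcripts with the exon include a noncoding form and a form annotated for nonsense-mediated decay, which took 14.7 to 23.9% of Stag1 fragments. All 3 decay transcripts of Stag1 together took 16.7 to 26.0%, and the other decay transcripts do not enter the comparison.

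**Figure D3:**
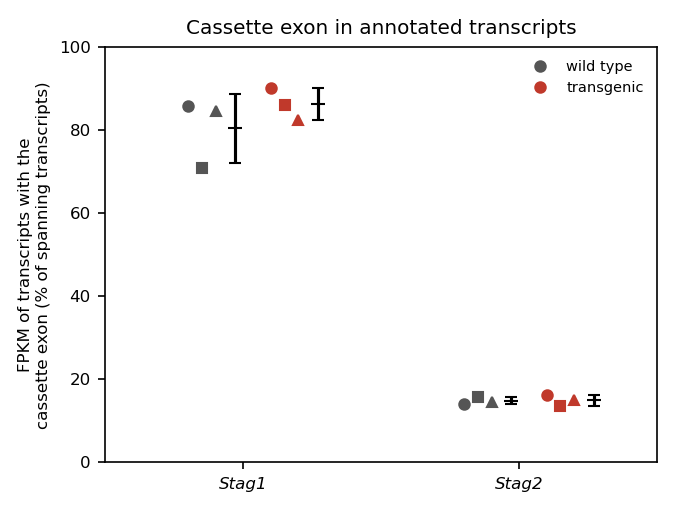
Share (y axis, percent of FPKM) of transcripts with the 111-base exon among transcripts that span it, for Stag1 and Stag2 in wild-type (grey) and transgenic (red) libraries (circles for replicate 1, squares for 2, triangles for 3), and black bars for mean and SD (n = 3). Stag1 lies at 70.9 to 90.2% and Stag2 at 13.5 to 16.3%.

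CTCF is the zinc finger protein that halts cohesin at boundaries. Ctcf (ENSMUSG00000005698, chromosome 8, 105636568 to 105682922, plus strand) was at 221, 234 and 231 CPM in wild type and at 207.5, 208.0 and 208.4 CPM in transgenic libraries. The transgenic libraries were nearly equal and all below wild type. Its log2 fold change was -0.14 ± 0.05 (SE), with an interval from -0.25 to -0.03 (edgeR, adjusted p = 0.279). On summed FPKM the groups overlapped, at 65.6, 70.2 and 68.6 against 64.6, 66.1 and 70.8, and limma on log2(FPKM + 0.1) gave -0.02 (adjusted p = 0.926). The same limma fit gave -0.14 for Smc1a, -0.11 for Smc3 and 0.13 for Pds5b. The coding transcript took 87.8, 88.1 and 88.8% of Ctcf fragments in wild type and 87.1, 85.8 and 86.4% in transgenic libraries. On FPKM it was at 42.7, 46.2 and 45.4 in wild type and 39.4, 40.5 and 41.4 in transgenic libraries, without overlap. The other 5 transcripts are annotated as processed or intron-retaining. Among them a processed transcript of 729 bases stood at 9.53, 10.3 and 9.72 against 12.7, 10.6 and 16.3 FPKM. It took 2.13 to 4.14% of Ctcf fragments but 14.2 to 23.0% of Ctcf FPKM. Exons of 2 genes on the opposite strand, Agrp and Gm5914, overlap Ctcf exons over 114 and 370 bases. Neither drew more than 121 fragments in a library, and no source used here says whether counting used strand.

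The loader gene lay on the other side of wild type. Nipbl (ENSMUSG00000022141, chromosome 15, 8290617 to 8444463, minus strand) was at 192, 179 and 191 CPM in wild type and at 213, 214 and 224 CPM in transgenic libraries. No transgenic library came within the wild-type range. The level differed by 15.9%, with an interval from 6.64 to 25.9%, a log2 fold change of 0.21 ± 0.05 (SE, edgeR, adjusted p = 0.17). DESeq2 called it higher (adjusted p = 0.0178), and over the 17 alternatives its log2 fold change ran from 0.18 to 0.25 with adjusted p from 0.0178 to 0.522. Mau2, its partner in the loader, named after its values were seen, stood at 226, 214 and 213 CPM in wild type and 246, 240 and 244 CPM in transgenic libraries, with a log2 fold change of 0.16 ± 0.05 (SE, edgeR, adjusted p = 0.229).

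PDS5A and PDS5B bind the ring and serve both its release and its stable hold. Pds5a (ENSMUSG00000029202, chromosome 5, 65605721 to 65698273, minus strand) had 366, 362 and 378 CPM in wild type and 339, 347 and 324 CPM in transgenic libraries, without overlap. The log2 fold change was -0.13 ± 0.05 (SE), with an interval from -0.25 to -0.01 (edgeR, adjusted p = 0.325). Pds5b (ENSMUSG00000034021, chromosome 5, 150673739 to 150810690, plus strand) was at 128, 127 and 118 CPM against 128, 124 and 123 CPM, with overlap. Its log2 fold change of 0.01 ± 0.05 (SE) had an interval from -0.11 to 0.13 (edgeR, adjusted p = 0.964), which spans differences from -7.14 to 9.10%.

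Ratios within a library do not depend on the scaling between libraries, and on summed FPKM 1 of 5 such ratios separated the groups. Nipbl to Smc3 was 0.422, 0.393 and 0.387 in wild type and 0.508, 0.503 and 0.530 in transgenic libraries (ratio of summed FPKM), a log2 difference of 0.36. By an exact two-sided permutation test p was 0.1, the lowest value possible with 3 libraries in each group, and 0.5 after adjustment over the 5 ratios. Stag2 to Stag1 was 3.56 ± 0.36 in wild type and 3.65 ± 0.28 in transgenic libraries (SD, n = 3 each, exact permutation p = 0.8). On transcripts of at least 1000 bases Stag2 to Stag1 was 2.60, 2.71 and 2.61 against 2.97, 2.79 and 2.70 (exact permutation p = 0.2), with overlap. Pds5b to Pds5a was 0.234 ± 0.022 and 0.273 ± 0.024 (SD, n = 3 each, exact permutation p = 0.2), with overlap. Smc1a to Smc3, at 1.83 ± 0.079 and 1.79 ± 0.064 (exact permutation p = 0.5, n = 3 each), and Rad21 to Smc3, at 0.873 ± 0.087 and 0.812 ± 0.048 (exact permutation p = 0.4, n = 3 each), also overlapped between groups. On estimated fragments the groups were separate for 3 of the 5 ratios (exact permutation p = 0.1 each), with log2 differences of 0.38 for Nipbl to Smc3, 0.14 for Pds5b to Pds5a and -0.06 for Smc1a to Smc3. On transcripts of at least 1000 bases they were separate for Nipbl to Smc3 (0.38) and Smc1a to Smc3 (-0.09).

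Other genes that act on the ring lay on both sides of 0. Of the 7 genes for loading, release and acetylation 2 lay below 0 and 5 above, with 0 called by edgeR after adjustment in either direction and a median log2 fold change of 0.12. Esco2, which acetylates SMC3 behind the replication fork, was at 42.1, 47.7 and 49.0 CPM in wild type and at 32.7, 35.8 and 25.6 CPM in transgenic libraries, a log2 fold change of -0.56 ± 0.13 (SE, edgeR, adjusted p = 0.159). Cdca5, or sororin, which protects acetylated rings from release, stood at 52.1, 60.8 and 61.0 CPM against 38.7, 47.4 and 38.8 CPM. For both genes the groups were separate. Esco1, the other acetyltransferase, lay above, with 73.9, 73.4 and 69.9 CPM in wild type and 97.9, 85.9 and 80.8 CPM in transgenic libraries. Wapal, which opens the ring, was at 346 to 360 CPM and 352 to 363 CPM. DESeq2 called Esco2 and Cdca5 lower and Esco1 higher (adjusted p = 0.0015, 0.00182 and 0.0295), where it called 4.62% of genes in either direction. Esco1 and Wapal were named after their values were seen.

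All 7 genes for cohesion at the replication fork lay below 0, with 0 called by edgeR, 5 lower at an unadjusted p under 0.05 (7.7% of all genes) and a median log2 fold change of -0.33. Tipin, of the fork protection complex, had 103, 123 and 121 CPM in wild type and 72.5, 86.1 and 84.8 CPM in transgenic libraries, and Wdhd1, which couples helicase and polymerase, was at -0.33 ± 0.09 (log2 fold change, SE). Of the 8 genes that protect or cut cohesin in mitosis 7 lay below 0, with 0 called by edgeR, 7 lower unadjusted and a median of -0.46. Espl1, the separase that cuts RAD21, was at 58.1, 58.6 and 66.5 CPM in wild type against 47.3, 47.2 and 39.9 CPM, and Sgol1, the shugoshin that shields centromeric cohesin, was at -0.48 ± 0.11 (log2 fold change, SE). DESeq2 called 2 of the 7 fork genes and 5 of the 8 mitotic ones lower, where it called 3.07% of genes lower.

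Condensins and the SMC5/6 complex are the other SMC machines of the cell. All 8 condensin genes were below 0, where 49.8% of all genes were. EdgeR called 0 of them, and DESeq2 called 4 lower, where it called 3.07% of genes lower. Their median was -0.27, with Ncapg at -0.57 ± 0.12 and Ncaph at -0.42 ± 0.11 (log2, SE). Of the 6 SMC5/6 genes 5 were below 0, with 0 called by edgeR, 1 called lower by DESeq2 and a median of -0.20. Smc6 was at 118, 122 and 115 CPM in wild type and 98.2, 106 and 90.2 CPM in transgenic libraries, and Nsmce4a at -0.21 ± 0.06 (log2 fold change, SE). Other looping and boundary factors had 6 of 9 above 0, 0 called by edgeR, and a median of 0.04. Patz1 and Ldb1 stood at 0.26 ± 0.06 and 0.20 ± 0.06 (log2, SE). DESeq2 called both higher (adjusted p = 0.00215 and 0.0483), where it called 4.62% of genes in either direction.

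**Figure D4:**
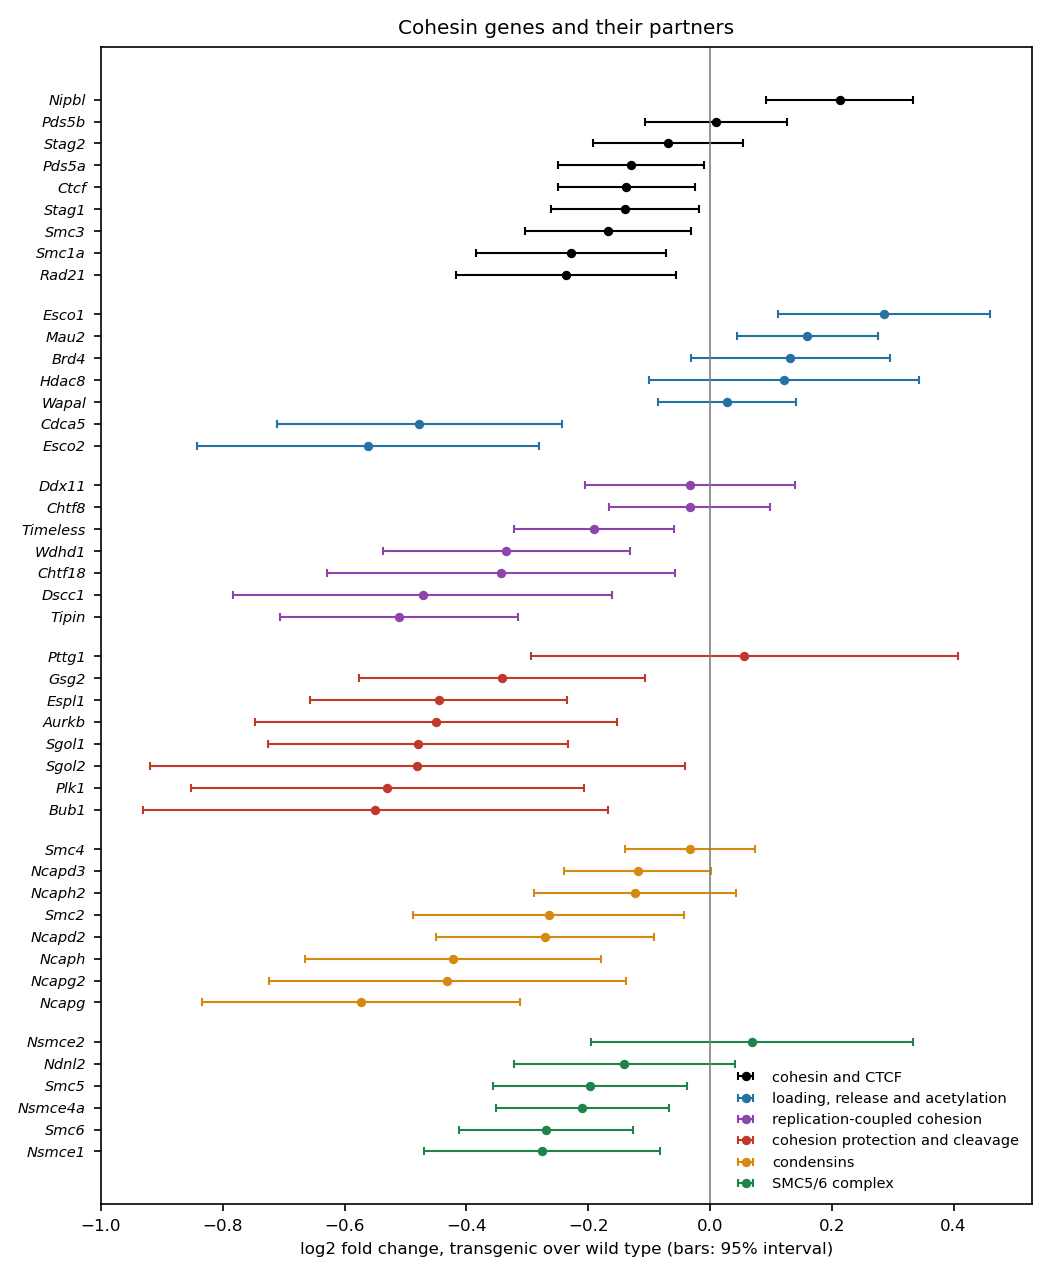
Log2 fold change of transgenic over wild-type libraries (x axis, edgeR, bars are 95% intervals) for the 9 cohesin and CTCF genes (black) and genes of 5 related lists (colours). Rad21 and Smc1a lie lowest among the 9, at -0.24 and -0.23, Nipbl highest, at 0.21, and Esco2 at -0.56 lies apart from Esco1 at 0.29.

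Germline forms of the ring were rare or listed at 0. Smc1b and Rad21l, meiotic partners of the ring, had 0 fragments in all 6 libraries, which allows up to 3 fragments, or 0.0638 to 0.0769 CPM without scaling factors. Stag3 was at 13.9, 10.9 and 16.5 CPM in wild type and at 8.53, 9.66 and 11.7 CPM in transgenic libraries, and Rec8, a meiotic kleisin, at 9.60, 5.79 and 9.55 CPM and at 19.3, 11.7 and 10.1 CPM. Ctcfl, the testis paralog of Ctcf, had 1.16 to 2.04 CPM. Of the 3 that could be tested none was called by edgeR or DESeq2. At an unadjusted edgeR p under 0.05, 1 was lower, Stag3, and 1 higher, Rec8, beside 7.7% of all genes lower and 5.71% higher.

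Cell division genes and 3 markers of double-positive cells, a later stage, lay lower in transgenic libraries, though edgeR called none of them. As the mean of log2(CPM + 0.5) minus each gene's mean over the 6 libraries, the 10 genes of G2 and mitosis stood at 0.01, 0.36 and 0.38 in wild type and at -0.20, -0.12 and -0.43 in transgenic libraries. Rad21 on that scale was at -0.07, 0.21 and 0.21 and at -0.05, -0.08 and -0.22, so wild-type replicates 2 and 3 were highest and transgenic replicate 3 was lowest for both, while wild-type replicate 1 lay above all transgenic libraries for the mitosis genes and below transgenic replicate 1 for Rad21. Nipbl ran opposite, at -0.07, -0.17 and -0.08 and at 0.08, 0.09 and 0.15. Smc1a and Smc3 were highest and lowest in the same libraries as Rad21, but other members were not. Stag1 and Ctcf were lowest in transgenic replicate 1, at -0.14 and -0.07. Stag2 was lowest in wild-type replicate 1, at -0.05, and Pds5b in wild-type replicate 3, at -0.09. Log2 fold changes were below 0 for all 10 S phase genes (median -0.27) and for all 10 genes of G2 and mitosis (median -0.49). EdgeR called 0 in both lists and DESeq2 called 7 and 9 lower, beside 3.07% of all genes. Ccnb2 and Bub1b of the mitosis list had log2 fold changes of -0.50 ± 0.09 and -0.47 ± 0.09, and Cdc45 and Rrm2 of the S phase list -0.49 ± 0.08 and -0.53 ± 0.09 (SE). Of the markers of double-positive cells, Cd4 was at 6.90, 6.76 and 7.0 CPM in wild type against 4.86, 3.30 and 2.97 in transgenic libraries. Cd8a was at 6.90, 6.82 and 10.8 CPM against 5.53, 2.78 and 1.37, and Cd8b1 at 7.21, 10.7 and 8.95 CPM against 5.73, 3.07 and 3.30. The groups did not overlap for these 3 genes, as for 10.1% of all genes in that direction, and edgeR called none of them, whereas DESeq2 called all 3 lower (adjusted p = 0.018, 0.0155 and 0.0025). Their part in the cohesin values was not tested.

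**Figure D5:**
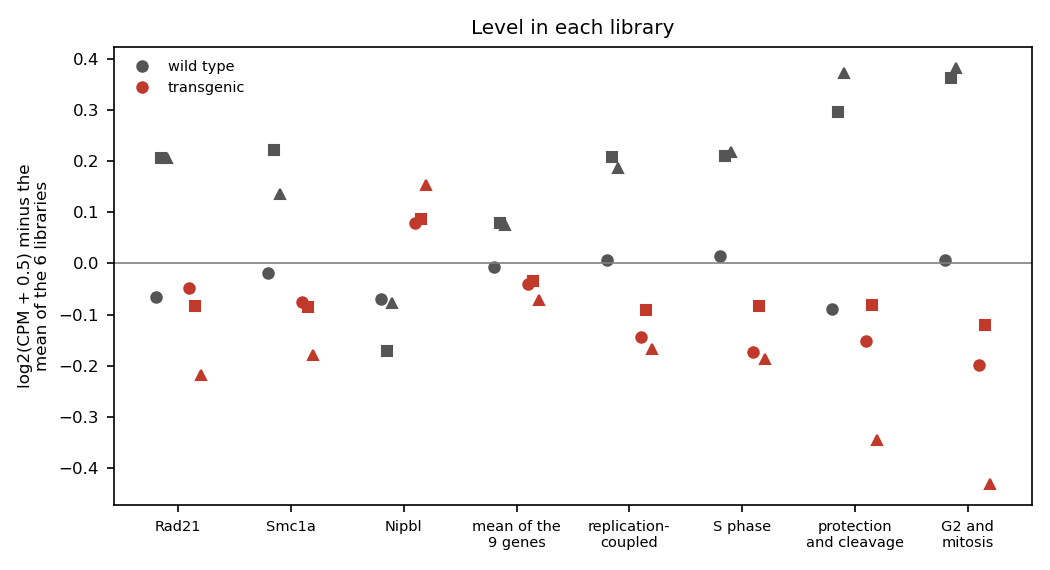
Level in each library as log2(CPM + 0.5) minus the mean of the 6 libraries (y axis) for 3 cohesin genes and the means of gene lists, wild type in grey and transgenic in red (circles for replicate 1, squares for 2, triangles for 3). Wild-type replicate 1 lies below wild-type replicates 2 and 3 for Rad21 and for G2 and mitosis, where it is at -0.07 and 0.01.

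Averaged over the 9 members, that level was -0.01, 0.08 and 0.07 in wild type and -0.04, -0.03 and -0.07 in transgenic libraries. Among 8860 other genes with a mean of at least 5 FPKM, the 5 nearest to this profile over the 6 libraries were Hnrnpf, Snrnp200, Tnpo3, Cct2 and Smu1. Their root mean square differences from it were 0.00939, 0.0125, 0.0130, 0.0141 and 0.0152 on the log2 scale.

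Promoter windows, 250 bases before to 50 after the start, were found in the RefSeq table (GRCm38.p6) for 6 of the 9 genes. They held 58.3 to 80.3% G and C, against a median of 52.7% over 32851 windows. The letters AGATAA or TGATAA, also with G for the last A, read on both strands as GATA matches, were in 1 of the 6, that of Ctcf, and in 29.8% of all windows, or 8.13% of the 7071 windows with at least 23 CpG, the fewest in a member. The letters TTTCCCGC and TTTGGCGC, read on both strands as E2F matches, were in 3 of the 6, Pds5a, Stag1 and Smc1a, and in 1.56% of all windows, or 3.89% of those with at least 23 CpG. The palindromic NRF1 motif was in 0 of the 6 and in 0.971% of all windows, or 2.73% of those with at least 23 CpG. The parts before the start are shown for the gene with GATA letters and for Stag1, whose E2F letters lie nearest upstream of a start (its RefSeq start lies inside the GENCODE locus), with matches in capitals, plus strand, at chr8:105636288-105636537 and chr9:100643198-100643447.
Ctcf: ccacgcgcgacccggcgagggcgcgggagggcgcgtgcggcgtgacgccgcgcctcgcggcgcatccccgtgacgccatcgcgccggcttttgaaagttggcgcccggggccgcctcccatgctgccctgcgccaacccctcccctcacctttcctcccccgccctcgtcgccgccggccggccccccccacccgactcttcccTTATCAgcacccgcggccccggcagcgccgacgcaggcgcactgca
Stag1: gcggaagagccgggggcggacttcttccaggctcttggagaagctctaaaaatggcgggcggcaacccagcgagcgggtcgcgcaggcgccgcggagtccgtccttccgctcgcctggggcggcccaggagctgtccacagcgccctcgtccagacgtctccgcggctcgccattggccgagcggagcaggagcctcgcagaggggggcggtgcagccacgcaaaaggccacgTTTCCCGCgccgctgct
The GATA letters of Ctcf begin 46 bases before its start and the E2F letters of Stag1 begin 17 bases before its start. No match overlapped another. A match of letters is a description of the window and was not tied to the values above.

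In the authors' deposited table, 0 of the 42 transcripts of these genes with a test were marked significant, and the smallest q was 0.998. The smallest p there, 0.0193, belonged to the Nipbl transcript, with a log2 fold change of 0.25 in the authors' deposited table.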

How the data were processed

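The 6 libraries were made from total RNA depleted of ribosomal RNA, per the labels' protocols. The submitters' processing notes name TopHat2, Cuffdiff and mm10. No source used here gives the annotation, read length or strand setting. The deposited table gives, per the file headers, the estimated count and the FPKM of each transcript in each library, and the authors' group FPKM, log2 fold change, p-value and q-value. Externally scaled fragments, a signal the authors also deposited, were not used. The number of columns of no labelled sample was 0.

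Expected counts, as deposited, were summed per symbol and rounded. The 197 symbols with a failed status (HIDATA), none of them a member, were left out. Genes were kept by filterByExpr (minimum count 10, total 15), scaled by TMM and tested, 3 transgenic against 3 wild-type libraries without covariate, with the quasi-likelihood test of edgeR (version 4.0.16 in R 4.3.3), two-sided, adjusted by Benjamini-Hochberg over 14653 genes with a threshold of 0.05. Standard errors come from the F statistic. The fit was tested on simulated data. Alternatives were DESeq2 (1.42.0), limma (3.58.1) on log2(FPKM + 0.1) and log2(FPKM + 0.5), other filters and scaling, the replicate block, a covariate for Y-linked RNA, and libraries left out.

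The members and lists were chosen with earlier results of these data known. Named were the 9 members and Gata3, from each list called genes and the 2 with the smallest p, and all germline paralogs. Coordinates were taken from GENCODE M21 (GRCm38, the build mm10 names) by gene ID, found for all 9. The authors' models of Rad21 and Nipbl differ in length from M21, and their table has 1 Pds5a transcript, so FPKM levels rest on their annotation. 1 marker gene is not reported here.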

Additional observations from a re-analysis of the deposited data

How the results depend on the processing

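The direction of Smc1a, Smc3, Rad21, Stag1, Stag2, Ctcf, Pds5a and Nipbl was the same in all 17 alternatives, and 0 members were called in 15 of them. Where a member's groups did not overlap in CPM, leaving out libraries could hardly reverse its direction. DESeq2 called 2 members, Smc1a (log2 fold change -0.23) and Nipbl (0.22), 33 of the 68 tested genes of the related lists and 477 genes in all (4.62%). The related lists include general division genes, and 7 of the S phase list and 9 of the G2 and mitosis list are among those called. Leaving out 1 library gave 0 to 2 members, 0 to 35 list genes and 1 to 498 genes. The upper values came without wild-type replicate 1, where Rad21 (-0.32) and Smc1a (-0.29) were called, beside 3.32% of all genes. Without 1 library Rad21 ran from -0.32 to -0.187 and Smc1a from -0.29 to -0.170. Pds5b reversed without transgenic replicate 1 and without wild-type replicate 3, at -0.00600 and -0.0299, over a range of -0.0299 to 0.0328. The cause was not tested. Calls in all and among list genes were 256 and 30 with the Y-linked covariate, 260 and 27 without the 2 libraries with Y-linked RNA, 127 and 16 without a filter, and 92 and 3 with failed loci kept. They were 14 and 1 with the replicate block, 4 in all with log2(FPKM + 0.1) and 1 in all with a mean FPKM of at least 1.

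Nothing in the labels used here pairs same-numbered libraries beyond the number. Their deviations from the group mean correlated at 0.0883, 0.0273 and -0.00176. With 3 libraries a group, such values cannot show whether same-numbered libraries were prepared together. The replicate block called 0 members. Nipbl to Smc3 was at 0.33 to 0.40 without 1 library. Its groups did not overlap, so leaving out 1 library could not reverse it. Stag2 to Stag1 ran from -0.0290 to 0.12, reversed without wild-type replicate 3 and, at -0.00151, without transgenic replicate 2. Smc1a to Smc3 ran from -0.0566 to 0.00285, reversed without wild-type replicate 2. It was -0.0596 on estimated fragments and -0.0892 on transcripts of at least 1000 bases, a setting chosen after seeing the data, and the groups were separate in both. Each member drew at least 4847 fragments per library, and its standard error was 0.05 to 0.08 on the log2 scale, which limits the differences that 3 libraries a group can call.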
